A study of Homo sapiens with 12 samples.

Results

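The 47 genes described here encode enzymes of central carbon metabolism, and they were taken by symbol from a table of 23686 genes. They are 17 glycolysis genes, 5 genes of the branch that pyruvate takes to lactate or to acetyl-CoA, 6 pentose phosphate genes, 16 genes of the tricarboxylic acid (TCA) cycle, and 3 cytosolic genes (IDH1, MDH1 and ME1). All 47 were found in the table, and all 47 passed the filter on low values that precedes the tests. Their levels lay between 5.24 TPM (PDK1) and 9626 TPM (GAPDH) in single libraries, where TPM is a gene's share of the transcripts of a library, scaled to gene length and to the same total in every library. Expression was measured by RNA sequencing in HCT116, a colon cancer cell line, and MDA-MB-231, a breast cancer cell line. In each line the groups were the antibody anti-Hsp60N with H2O2, control IgG with H2O2, and control IgG without H2O2, 2 libraries per group and 12 in all; the IgG libraries carry WT in their titles. The oxidant H2O2 was given at 100 µM for 8 h. No group received the antibody without H2O2, the lines were grown in different media, and the sources do not say whether replicate libraries stem from separate cultures, so that p-values measure a spread that may be technical.

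Glycolysis splits glucose into pyruvate in the cytosol, with hexokinase and phosphofructokinase as its main control points. Pyruvate is then reduced to lactate by lactate dehydrogenase, or it enters mitochondria, where the pyruvate dehydrogenase complex turns it into acetyl-CoA that the TCA cycle oxidises. The pentose phosphate pathway branches off at glucose 6-phosphate, and its oxidative arm reduces NADP to NADPH, with which cells regenerate glutathione and thioredoxin after peroxide exposure. Cancer cell lines commonly run glycolysis at a high rate even when oxygen is present.

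EPCAM and VIM separated the lines as epithelial and mesenchymal-like, which does not identify their tissues. EPCAM lay between 332 and 370 TPM in HCT116 and between 22.6 and 25.3 TPM in MDA-MB-231, and VIM between 5.06 and 5.81 TPM in HCT116 and between 2233 and 2551 TPM in MDA-MB-231. Of 8 colon epithelium markers, 4 averaged at least 1 TPM in HCT116, and CDX1 was listed at 0 in every library. VIL1, CDH17 and LGALS4 reached at most 0.04, 0.07 and 0.27 TPM in HCT116. Of 6 markers of mesenchymal-like breast lines, 5 averaged at least 1 TPM in MDA-MB-231, and SPARC reached at most 0.81 TPM there. Summed markers of leukocytes (0.41 to 1.99 TPM in HCT116, 5.10 to 7.04 TPM in MDA-MB-231), fibroblasts (6.01 to 8.31 and 7.41 to 10.1 TPM) and endothelium (0.12 to 0.29 and 4.31 to 5.39 TPM) were low. Replicate libraries of a group had correlations of 0.994 to 0.996 over genes, and 12411 to 12653 genes reached 1 TPM per library. Sequencing depth cannot be recovered from TPM, so no counting interval is given.

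In HCT116, many genes of the TCA cycle fell under H2O2, while single genes such as HK2, PFKFB4 and PDK1 rose. Of the 47 members, 5 were higher and 15 were lower under H2O2 at a limma adjusted p under 0.05, which is 42.6% of the members beside 32.9% of all 13956 genes tested. By direction, 15.4% of all genes were higher and 17.5% were lower. Of the 17 glycolysis genes 3 were higher and 1 was lower, which is 23.5% and below the share of all genes. The 5 that rose were HK2, PFKFB4 and ENO2 of glycolysis, PDK1, and ME1, and their mean TPM rose by 19.8% to 49.0%. The 15 that fell included 9 of the 16 TCA genes, the 3 members LDHB, PDHA1 and PDHB of the pyruvate branch, TALDO1 and RPE of the pentose phosphate pathway, and PFKM of glycolysis. The median change over the members was -0.06 on the log2(TPM + 1) scale, against -0.01 over all genes tested. In a bulk library, fewer cells that express a gene and less of its RNA per cell cannot be told apart. The count rested on both H2O2 libraries: it was 12 without H2O2 replicate 1, 13 without H2O2 replicate 2, and 13 when HCT116 was fitted without MDA-MB-231. Of the 20 calls, 9 held under all 21 other settings (HK2, PFKM, PDHB, IDH3A, IDH3B, IDH3G, SDHB, MDH2 and ME1).

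Promoters are printed for the genes that rose, where a motif was found. Hypoxia-inducible factors and NRF2, whose DNA motifs are short, are known regulators of several of these genes in human cells. The windows hold the 250 bases before the annotated start, from RefSeq on GRCh38.p14, and 45 of the 47 members had an entry. Only the first entry of each symbol was used, so any other start of a gene was not searched. Capitals mark ACGTG or GCGTG, the core of the hypoxia response element, and TGACNNNGC, the core of the antioxidant response element, on either strand. ACGTG also matches within CACGTG on both strands. The HK2 window (chr2:74833877-74834126, plus strand) holds 2 matches to ACGTG and 1 to GCGTG. The windows of PFKFB4 (chr3:48556804-48557053, minus strand) and ENO2 (chr12:6914330-6914579, plus strand) hold 1 match each, and that of ME1 (chr6:83431052-83431301, minus strand) holds 2 to GCGTG and 1 to TGACNNNGC.
HK2: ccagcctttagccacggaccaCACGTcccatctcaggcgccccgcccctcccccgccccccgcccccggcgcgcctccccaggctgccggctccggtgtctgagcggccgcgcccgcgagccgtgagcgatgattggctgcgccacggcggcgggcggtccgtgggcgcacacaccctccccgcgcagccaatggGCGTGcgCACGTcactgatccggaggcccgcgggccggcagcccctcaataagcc
PFKFB4: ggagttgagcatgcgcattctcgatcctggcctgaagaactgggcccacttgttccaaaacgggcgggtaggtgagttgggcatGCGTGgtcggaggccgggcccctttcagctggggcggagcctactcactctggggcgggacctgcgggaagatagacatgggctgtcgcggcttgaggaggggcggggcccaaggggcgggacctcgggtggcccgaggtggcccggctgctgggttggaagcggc
ENO2: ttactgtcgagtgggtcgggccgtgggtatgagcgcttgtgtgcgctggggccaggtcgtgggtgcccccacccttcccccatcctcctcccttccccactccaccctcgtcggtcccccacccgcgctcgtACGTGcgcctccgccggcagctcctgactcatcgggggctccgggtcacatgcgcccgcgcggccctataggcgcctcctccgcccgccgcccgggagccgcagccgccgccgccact
ME1: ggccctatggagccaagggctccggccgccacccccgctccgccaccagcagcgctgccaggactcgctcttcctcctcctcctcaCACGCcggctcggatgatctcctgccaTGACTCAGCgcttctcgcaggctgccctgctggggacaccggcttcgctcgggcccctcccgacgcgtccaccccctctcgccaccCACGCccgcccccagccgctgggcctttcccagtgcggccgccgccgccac
The PDK1 window held none of these letters. ACGTG or GCGTG was found in 4 of the 5 windows of genes that rose, in 8 of 15 of those that fell, in 14 of 25 of the other members, and in 43.1% of 27305 promoters of the same length. TGACNNNGC was found in 1 of 5, 2 of 15 and 5 of 25 windows and in 11.0% of all promoters, and TGATGNAA, the core of the amino acid response element, in 0 of 5, 0 of 15 and 1 of 25 windows and in 3.19%. A match is a description of the letters and not evidence of binding, and the submitters' processing notes name another build, hg19.

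HK2 encodes the inducible hexokinase that phosphorylates glucose at the outer face of mitochondria. Its level in HCT116 was 55.4 and 58.8 TPM under H2O2, against 41.4 and 35.2 TPM under IgG. Both H2O2 libraries lay above both IgG libraries, and HK2 was higher by 0.57 (SE 0.09, limma adjusted p = 0.000899). Libraries were separate in this way, in either direction, for 62.8% of all genes tested in HCT116. HK1, the housekeeping hexokinase, had 56.3 and 59.3 TPM under H2O2 against 65.7 and 63.5 TPM under IgG, and its difference of -0.16 did not pass (limma adjusted p = 0.0696). HK2 therefore made up 49.6% and 49.8% of the summed HK1 and HK2 TPM under H2O2, and 38.6% and 35.7% under IgG. In MDA-MB-231 this share stayed between 9.99% and 11.4% in all 6 libraries.

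PFKFB4 makes and removes fructose 2,6-bisphosphate, the strongest activator of phosphofructokinase. It stood at 37.5 and 38.7 TPM under H2O2 and at 29.7 and 23.9 TPM under IgG in HCT116, a difference of 0.50 (SE 0.15, limma adjusted p = 0.0235). The groups did not overlap, but the IgG libraries differed from each other by more than the H2O2 libraries did, and the call was lost in 5 of the 21 other settings. PFKFB3, the other isozyme of this family among the members, had 36.7 and 36.6 TPM under H2O2 and 35.8 and 37.4 TPM under IgG. Its change was 0.00, within the spread of the libraries.

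Phosphofructokinase itself, which commits glucose to glycolysis, is built from PFKM, PFKL and PFKP subunits. PFKM had 83.0 and 82.7 TPM under H2O2, against 102.5 and 104.3 TPM under IgG, and it was the glycolytic member that fell (-0.32, SE 0.06, limma adjusted p = 0.00327). PFKL (-0.08) and PFKP (0.05) did not pass. PFKP remained the most abundant of the 3 in HCT116, at 324 and 320 TPM under H2O2 and 324 and 298 TPM under IgG.

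Among the enzymes that carry the carbon through lower glycolysis, ENO2 was the member that passed. This enolase isozyme, typical of neurons, had 88.4 and 94.3 TPM under H2O2 and 80.1 and 68.6 TPM under IgG (0.30, SE 0.10, limma adjusted p = 0.0419). The groups were separate by a small margin, and 13 of the 21 other settings lost the call. ENO1, the main enolase, had 2799 and 2883 TPM under H2O2 and 2793 and 2867 TPM under IgG, a change of 0.01. ALDOC, a brain-type aldolase, had 68.1 and 72.7 TPM under H2O2 and 63.8 and 48.2 TPM under IgG, and the difference of 0.34 did not pass (limma adjusted p = 0.0788). GAPDH (0.08), PGK1 (0.10), ALDOA (0.12), TPI1 (-0.14) and PKM (-0.01) did not pass either. GAPDH, PGK1, PGAM1, ENO1, LDHA and SDHD have processed pseudogenes in the human genome, and their levels are uncertain to the extent that the authors' counting shared reads with these copies.

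At the entry of pyruvate into mitochondria, the kinase gene PDK1 rose, while the genes of the pyruvate dehydrogenase complex, and PDK2, a further kinase of it, fell. PDK1 phosphorylates and switches off pyruvate dehydrogenase. It had 8.35 and 9.77 TPM under H2O2, against 7.16 and 5.24 TPM under IgG, the lowest levels of any member (0.49, SE 0.13, limma adjusted p = 0.014). The pseudocount of 1 TPM understates the change of so low a gene, and the call was lost in 3 of the 21 other settings. PDK2, from the list of further pathway genes, is an isozyme with the same action and had 21.4 and 20.7 TPM under H2O2, against 25.5 and 29.5 TPM under IgG (-0.37, SE 0.08, limma adjusted p = 0.00602). The more abundant of these kinases thus went the other way, and its call was lost with HCT116 fitted by itself. PDHB, the beta subunit of pyruvate dehydrogenase, had 59.7 and 63.4 TPM under H2O2 and 78.1 and 75.1 TPM under IgG (-0.31, SE 0.05, limma adjusted p = 0.00126). PDHA1, the alpha subunit that PDK1 phosphorylates, was lower by less (-0.17, SE 0.05, limma adjusted p = 0.0328) and lost its call in 6 settings. The other subunits of the complex, taken from the list of further pathway genes, fell as well: DLAT by -0.31 (limma adjusted p = 0.00191), PDHX by -0.30 (limma adjusted p = 0.00783) and DLD by -0.20 (limma adjusted p = 0.0179). The DLD call was lost in 3 of the 21 other settings and the PDHX call in 1, each of them with a library left out.

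Lactate dehydrogenase has a muscle-type subunit, LDHA, and a heart-type subunit, LDHB. LDHB had 1573 and 1687 TPM under H2O2 and 1855 and 1862 TPM under IgG (-0.19, SE 0.05, limma adjusted p = 0.0119). LDHA overlapped between the groups, with 1196 and 1256 TPM under H2O2 and 1372 and 1176 TPM under IgG, and its change of -0.05 did not pass.

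**Figure D1:**
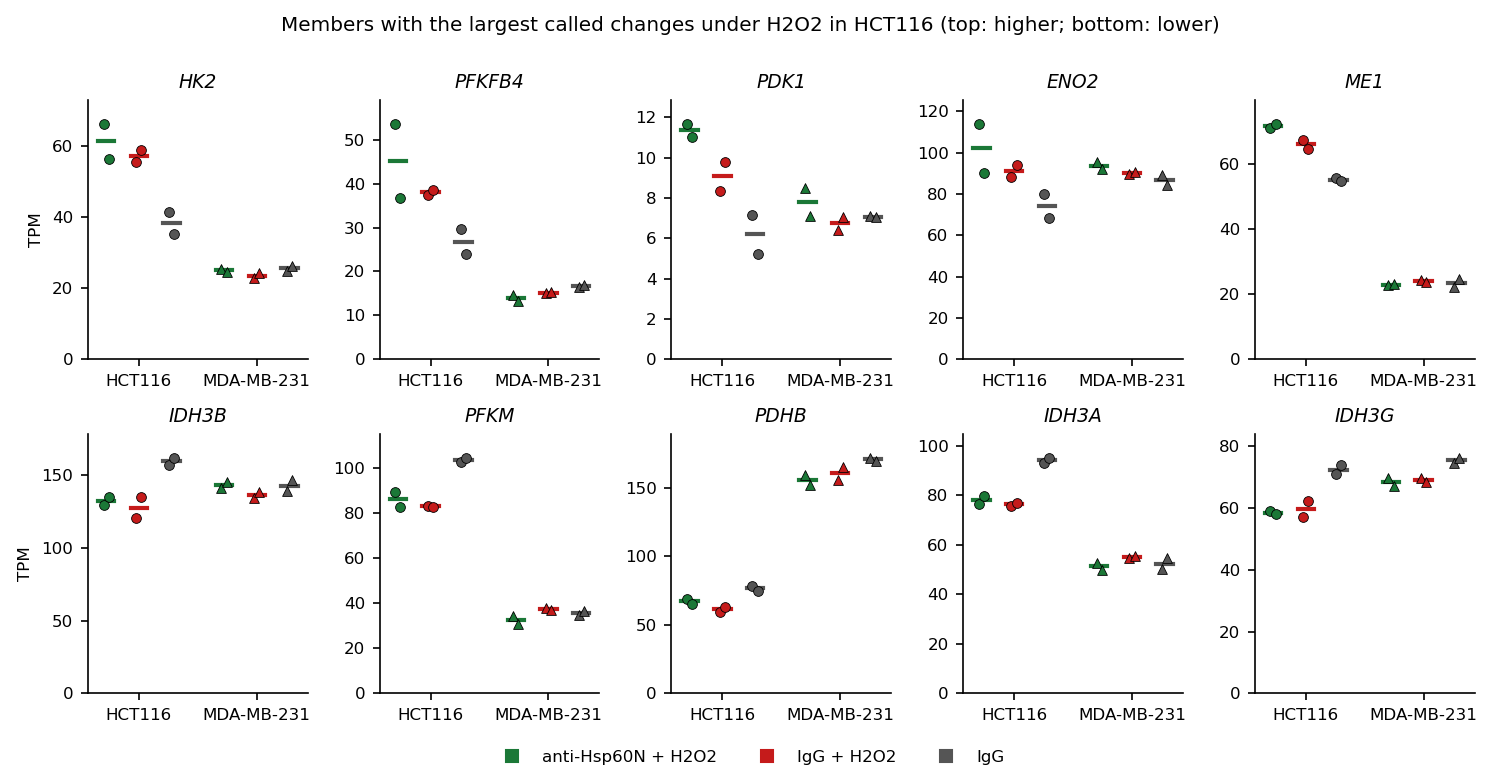
TPM (vertical axes, from 0) of the 5 members that rose and the 5 that fell most under H2O2 in HCT116, for each of the 12 libraries. Points are libraries (circles HCT116, triangles MDA-MB-231), lines are means of 2, and within each line anti-Hsp60N with H2O2 stands left, IgG with H2O2 in the middle and IgG right; in HCT116 HK2 lies at 55.4 and 58.8 TPM under H2O2 and at 41.4 and 35.2 TPM under IgG.

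The genes of the TCA cycle moved largely one way in HCT116. Of its 16 genes 9 fell, 0 rose, and 15 of the 16 estimates were negative, with a median of -0.18. Of all 13956 genes tested, 17.5% fell and 15.4% rose, and 7207 estimates were negative, with a median of -0.01. All 3 subunits of the NAD-dependent isocitrate dehydrogenase, a rate-limiting step of the cycle, were among the 5 members that fell most. IDH3A, the catalytic alpha subunit, had 75.7 and 77.0 TPM under H2O2, against 93.2 and 95.2 TPM under IgG (-0.30, SE 0.05, limma adjusted p = 0.00202). IDH3B had 120.5 and 134.8 TPM under H2O2, against 157.2 and 162.0 TPM under IgG (-0.32, SE 0.06, limma adjusted p = 0.0019). IDH3G had 57.0 and 62.3 TPM under H2O2, against 70.8 and 73.7 TPM under IgG (-0.27, SE 0.05, limma adjusted p = 0.00295). In each of the 3 the H2O2 libraries lay below the IgG libraries. IDH2, the mitochondrial isocitrate dehydrogenase that uses NADP, had 40.3 and 42.5 TPM under H2O2 and 41.3 and 46.5 TPM under IgG, which overlap (-0.08, limma adjusted p = 0.545).

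Around the rest of the cycle, CS, the entry enzyme citrate synthase (-0.21), SUCLA2, the ADP-forming subunit of succinyl-CoA ligase (-0.23), FH, fumarase (-0.19), and MDH2, mitochondrial malate dehydrogenase (-0.19), all fell. Succinate dehydrogenase, which is also complex II of the respiratory chain, was split. Its catalytic subunits SDHA (-0.15) and SDHB (-0.23) fell, with SDHB at 206.5 and 202.7 TPM under H2O2 against 247.4 and 234.5 TPM under IgG. Its membrane anchors SDHC (-0.06) and SDHD (-0.02) did not pass. The oxoglutarate dehydrogenase genes OGDH (-0.03) and DLST (0.01) did not pass either, nor did SUCLG1 (-0.07) and SUCLG2 (-0.17). The number of TCA genes that fell was 6 after quantile normalization, 7 without IgG replicate 1, 7 without H2O2 replicate 1, 6 without H2O2 replicate 2, and 7 with HCT116 fitted by itself. Summed over the 16 genes, the level was 1985 ± 21.4 TPM under H2O2 and 2238 ± 25.6 TPM under IgG (SD, n = 2 each), 11.3% lower.

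The pentose phosphate genes did not rise in HCT116. TALDO1 (transaldolase, -0.15, limma adjusted p = 0.0139) and RPE (ribulose-phosphate epimerase, -0.27, limma adjusted p = 0.0108), both of the non-oxidative arm, fell. RPE had 39.0 and 39.7 TPM under H2O2, against 49.0 and 46.2 TPM under IgG, and the groups were separate. PGD, which makes the second NADPH of the oxidative arm, had 269.6 and 289.0 TPM under H2O2 and 307.1 and 286.7 TPM under IgG, which overlap (-0.09, limma adjusted p = 0.201). PGLS (0.03), TKT (-0.05) and RPIA (-0.15) did not pass. The 6 genes summed to 1282 ± 12.9 TPM under H2O2 and 1365 ± 3.13 TPM under IgG (SD, n = 2 each).

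Of the cytosolic enzymes, ME1 rose in HCT116. The NADP-dependent malic enzyme that it encodes turns malate into pyruvate and makes NADPH. It had 67.4 and 64.7 TPM under H2O2, against 55.6 and 54.7 TPM under IgG (0.26, SE 0.06, limma adjusted p = 0.00625). Both libraries of each group lay close together, and the call held under every other setting tried. IDH1 (-0.04) and MDH1 (-0.06) did not pass.

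Of 61 further genes of these pathways, such as transporters, other isozymes and regulators, 60 were in the table and 47 passed the filter on low values. In HCT116 11 of these 47 rose and 14 fell under H2O2, which is 53.2% beside 32.9% of all genes (15.4% higher, 17.5% lower). The largest changes were PCK2, mitochondrial phosphoenolpyruvate carboxykinase, with 70.7 and 71.9 TPM under H2O2 against 25.6 and 23.6 TPM under IgG (1.50, limma adjusted p = 5.5e-07). GOT1, cytosolic aspartate transaminase, had 296.2 and 293.5 TPM under H2O2 against 113.8 and 127.7 TPM under IgG (1.28, limma adjusted p = 2.04e-07). Both changes, like those of the genes named next, were larger than that of any of the 47 members. HKDC1, a further hexokinase, had low levels of 3.28 and 3.11 TPM under H2O2, against 0.78 and 0.77 TPM under IgG (1.24, limma adjusted p = 5.43e-06). The glucose transporter SLC2A3 had 9.69 and 10.6 TPM under H2O2 and 6.79 and 4.95 TPM under IgG (0.71, limma adjusted p = 0.00642). Its call was lost in 2 of the 21 other settings. The enolase ENO3 had 14.2 and 13.7 TPM under H2O2 and 8.34 and 8.98 TPM under IgG (0.63, limma adjusted p = 0.00029).

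In MDA-MB-231, 0 of the 47 members passed the limma test for H2O2 against IgG, where 2.66% of all genes did. An unadjusted limma p under 0.05 was reached by 4 members, a level at which all genes were not counted. The changes lay between -0.22 and 0.18 with a median of -0.01. IDH1, the cytosolic NADP-dependent isocitrate dehydrogenase, had the smallest p, with 47.9 and 45.4 TPM under H2O2 and 54.3 and 54.9 TPM under IgG (-0.22, limma adjusted p = 0.0916). OGDH was next, at 91.7 and 92.4 TPM under H2O2 and 78.1 and 84.2 TPM under IgG (0.18, limma adjusted p = 0.149). Both pairs of groups were separate without passing the test, and 47.6% of all genes tested were separate in this comparison. TALDO1 had 473 and 471 TPM under H2O2 and 449 and 433 TPM under IgG (0.10, limma adjusted p = 0.241). Of the 47 further pathway genes, 0 passed in this line. Over all genes the MDA-MB-231 calls were 181 higher and 190 lower, whereas median-of-ratios scaling gave 154 higher calls and 279 lower ones.

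**Figure D2:**
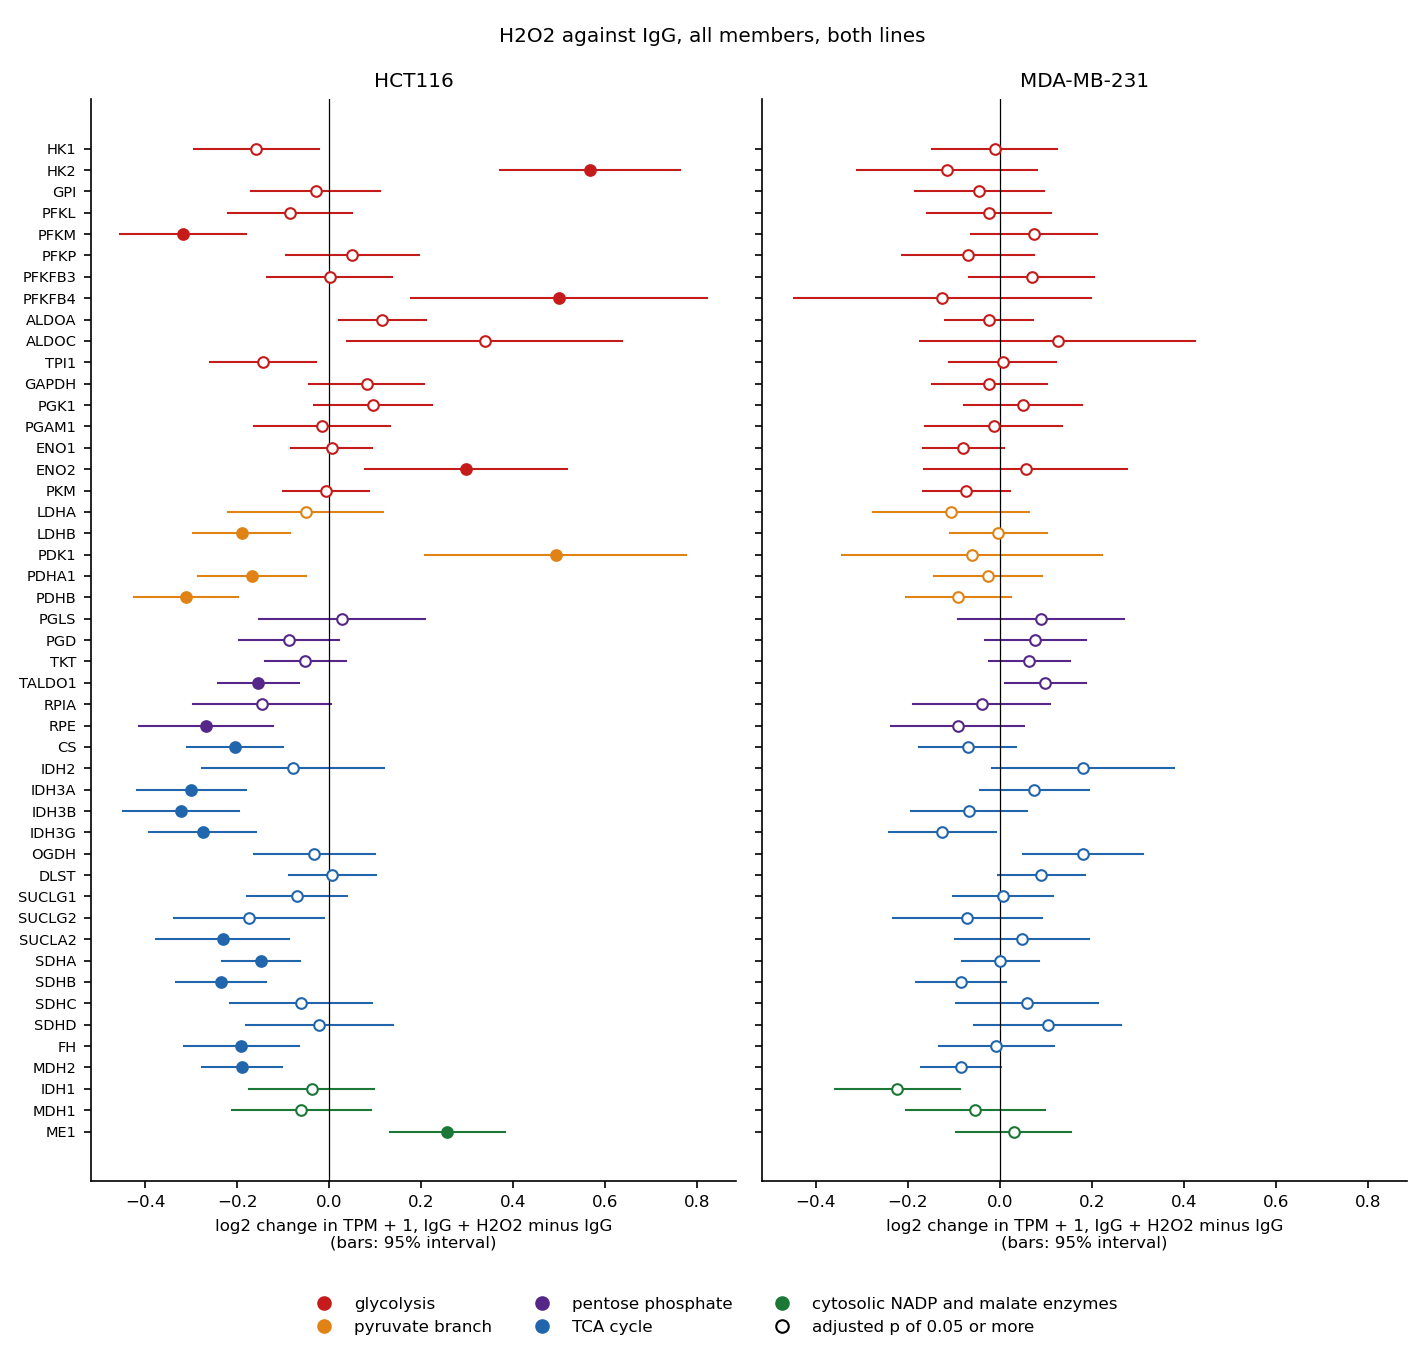
Change in log2(TPM + 1) under H2O2 against IgG (horizontal axis, same scale in both panels) for each of the 47 members, HCT116 left and MDA-MB-231 right; bars are 95% intervals, colours mark the pathway, and open points have a limma adjusted p of 0.05 or more. In HCT116 20 points are filled, 9 of them TCA genes below 0, and in MDA-MB-231 none is filled and the changes lie between -0.22 and 0.18.

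Whether the H2O2 change differed between the lines was tested directly. For 4 of the 47 members it did (8.51%, beside 17.4% of all genes, 7.65% higher and 9.72% lower). An unadjusted limma p under 0.05 was reached by 17 members, a level at which all genes were not counted. HK2 was at 22.9 and 24.1 TPM under H2O2 and 24.9 and 26.2 TPM under IgG in MDA-MB-231, and the change in HCT116 exceeded that in MDA-MB-231 by 0.68 (SE 0.13, limma adjusted p = 0.00552). IDH3A was at 54.7 and 55.6 TPM under H2O2 and 50.1 and 54.6 TPM under IgG in MDA-MB-231, and its change was lower in HCT116 by -0.37 (SE 0.08, limma adjusted p = 0.00879). For PFKM, at 38.0 and 36.8 TPM under H2O2 and 34.5 and 36.5 TPM under IgG in MDA-MB-231, the difference of the changes was -0.39 (SE 0.09, limma adjusted p = 0.0137), and for TALDO1 it was -0.25 (SE 0.06, limma adjusted p = 0.0134). In all 4 the HCT116 libraries were separate by treatment, as were those of 62.8% of all genes tested. The HK2 and IDH3A differences passed under all 19 other settings, those of PFKM and TALDO1 were lost without MDA-MB-231 H2O2 replicate 1, which left 2 members, and that of TALDO1 also without MDA-MB-231 H2O2 replicate 2. The count was 7 with a filter at a mean of 5 TPM. All 16 TCA estimates of this difference were negative, with a median of -0.15 against -0.04 over all genes, and 1 of the 16 passed. Of all 13956 genes tested, 7882 had a negative estimate. PDK1 (0.55, limma adjusted p = 0.0598), PFKFB4 (0.62, limma adjusted p = 0.061) and IDH3B (-0.26, limma adjusted p = 0.0532) did not pass.

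**Figure D3:**
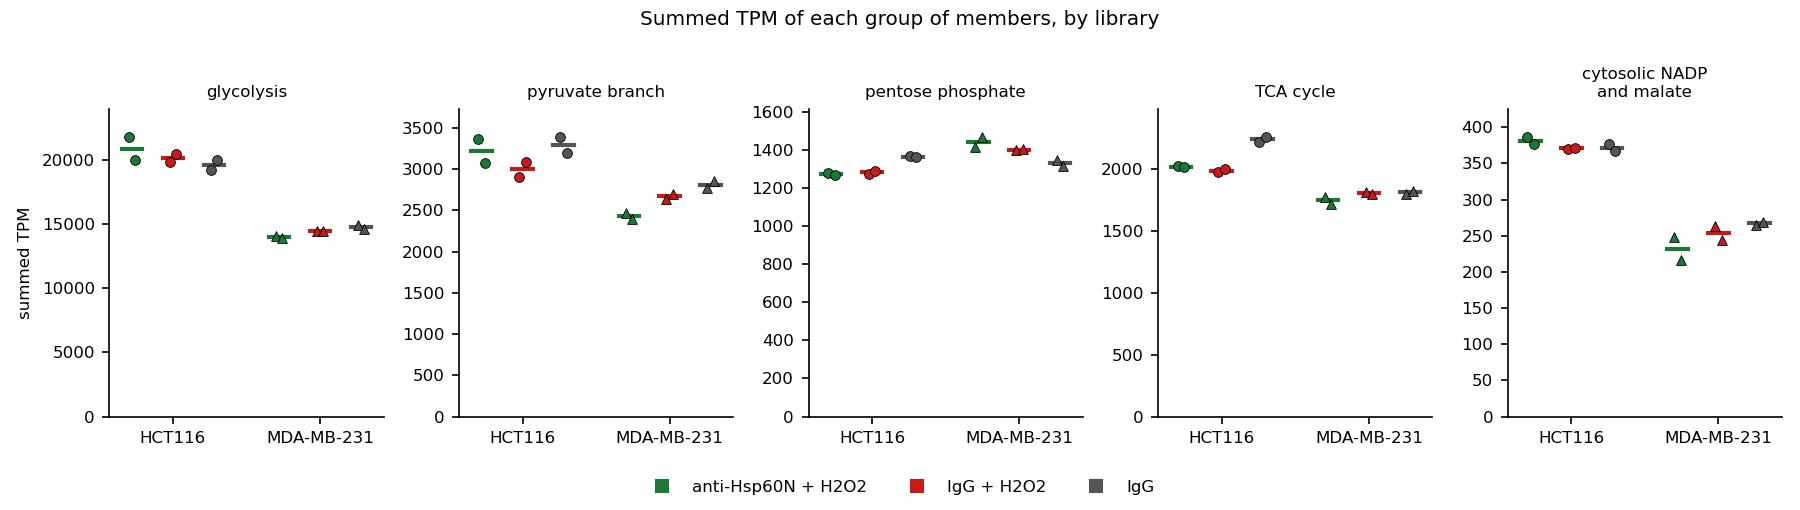
Summed TPM (vertical axes, from 0) of the members of each pathway in each library; points are libraries, lines are means of 2, and within each line anti-Hsp60N with H2O2 stands left, IgG with H2O2 in the middle and IgG right. The TCA sum in HCT116 averages 2015 TPM with the antibody and H2O2, 1985 TPM under H2O2 and 2238 TPM under IgG, and in MDA-MB-231 1746, 1801 and 1810 TPM.

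Under IgG the lines themselves differed in most of these genes. Of the 47 members, 27 were higher and 10 were lower in HCT116 than in MDA-MB-231, which is 78.7% of the members beside 82.8% of all genes (45.5% higher, 37.3% lower), so that a call of this kind was the usual outcome for any gene. The median difference was 0.32 over the members and 0.11 over all genes. Median-of-ratios scaling gave 0.19 over the members and -0.01 over all genes, with 25 members higher and 13 lower. By pathway, 10 of 17 glycolysis genes were higher and 3 lower, 9 of 16 TCA genes were higher and 3 lower, and 4 of 6 pentose phosphate genes were higher and 2 lower. Of the 5 pyruvate branch genes 1 was higher and 2 lower, and all 3 cytosolic genes were higher. Line and medium cannot be told apart in these comparisons.

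The largest differences in either direction, of ALDOC, HK1 and PFKM, were in glycolysis genes that have isozymes. HK1 averaged 64.6 ± 1.56 TPM in HCT116, against 206 ± 6.41 TPM in MDA-MB-231 (SD, n = 2 each), the largest deficit of HCT116 among the members (-1.66, limma adjusted p = 4.61e-10). HK2, at 38.3 ± 4.33 TPM in HCT116, against 25.5 ± 0.919 TPM in MDA-MB-231, was higher in HCT116 (0.56, limma adjusted p = 0.000107). ALDOC averaged 56.0 ± 11.1 TPM in HCT116, against 9.92 ± 0.764 TPM in MDA-MB-231 (2.37, limma adjusted p = 1.89e-08), the largest excess. PFKM, the muscle-type phosphofructokinase, averaged 103 ± 1.24 TPM in HCT116, against 35.5 ± 1.41 TPM in MDA-MB-231 (1.52, limma adjusted p = 1.1e-09). GPI, which interconverts glucose and fructose 6-phosphates, averaged 382 ± 4.48 TPM in HCT116, against 176 ± 0.509 TPM in MDA-MB-231 (1.12, limma adjusted p = 1.81e-08). In each of these the libraries of the lines did not overlap, as was so for 89.7% of all genes tested.

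The lactate dehydrogenase subunits also differed in balance. LDHB averaged 1859 ± 4.82 TPM in HCT116, against 770 ± 30.7 TPM in MDA-MB-231 (1.27, limma adjusted p = 5.35e-10), while LDHA was lower in HCT116 (-0.49, limma adjusted p = 9.61e-05). LDHB made up between 54.2% and 61.3% of the summed LDHA and LDHB TPM in the HCT116 libraries, and between 28.8% and 34.0% in the MDA-MB-231 libraries. PDHB was lower in HCT116, at 76.6 ± 2.12 TPM against 171 ± 1.41 TPM in MDA-MB-231 (-1.15, limma adjusted p = 2.42e-09). PDHA1, its partner subunit, averaged 80.0 TPM in HCT116, against 74.7 TPM in MDA-MB-231 and did not pass (0.10, limma adjusted p = 0.112).

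Of the members whose enzymes make NADPH, PGD, IDH1, IDH2 and ME1, all 4 were higher in HCT116. PGD averaged 297 ± 14.4 TPM in HCT116, against 197 ± 4.18 TPM in MDA-MB-231 (0.59, limma adjusted p = 5.04e-07). IDH1 (0.54, limma adjusted p = 6.99e-06) and IDH2 (0.82, limma adjusted p = 5.03e-06) were higher as well. ME1 averaged 55.1 ± 0.686 TPM in HCT116, against 23.5 ± 1.66 TPM in MDA-MB-231 (1.20, limma adjusted p = 3.67e-09). PGLS, the lactonase between the NADPH-making steps of the pentose phosphate pathway, was lower and averaged 48.5 ± 4.23 TPM in HCT116, against 111 ± 0.806 TPM in MDA-MB-231 (-1.18, limma adjusted p = 1e-07). TALDO1 (-0.64, limma adjusted p = 4.32e-08) and FH (-0.51, limma adjusted p = 5.91e-06) were the other members furthest below MDA-MB-231. PFKFB3 was the member closest to equal, at 36.6 TPM in HCT116, against 36.2 TPM in MDA-MB-231 (0.01, 95% interval -0.12 to 0.15). SUCLG1 was called higher in HCT116 (0.12, limma adjusted p = 0.038), but the call was lost in 6 of the 19 other settings with its sign kept, and after median-of-ratios scaling the difference was -0.0093 (limma adjusted p = 0.878).

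**Figure D4:**
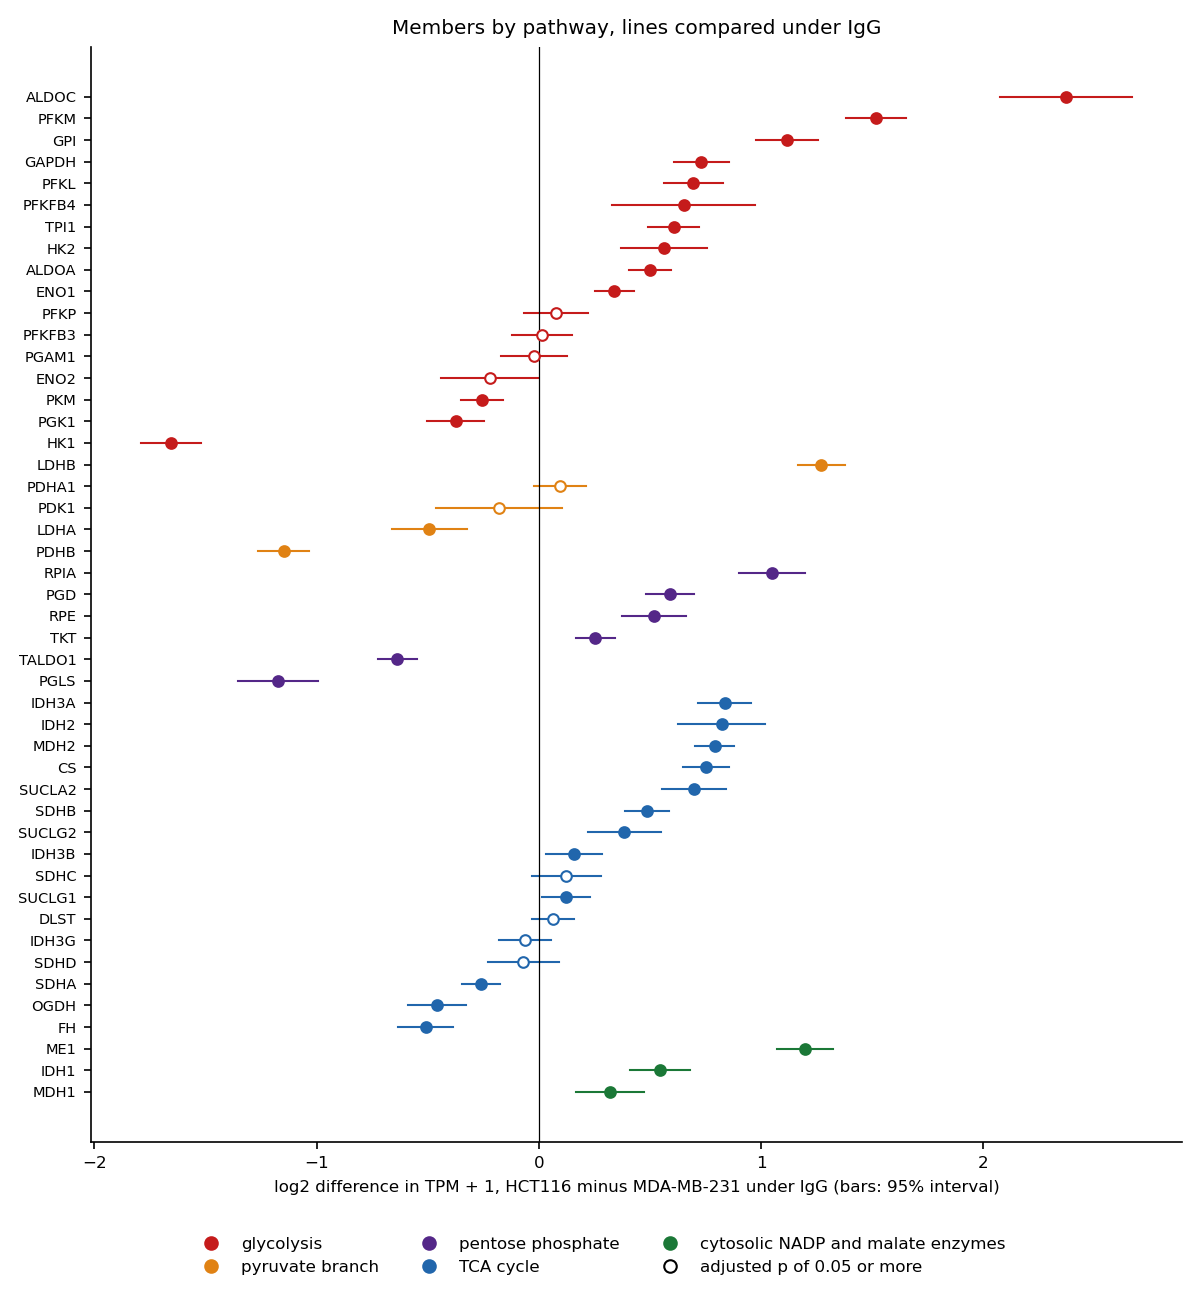
Difference in log2(TPM + 1) between HCT116 and MDA-MB-231 under IgG (horizontal axis) for the 47 members, grouped by pathway and ordered by size within it; bars are 95% intervals and open points have a limma adjusted p of 0.05 or more. ALDOC at 2.37 and HK1 at -1.66 are the ends of the range, 27 filled points lie above 0 and 10 below.

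With anti-Hsp60N added to H2O2, 0 of the 47 members passed the limma test against IgG with H2O2 in either line. Over all genes 0.0215% passed in HCT116 and 0.0143% in MDA-MB-231, so the test made almost no calls. An unadjusted limma p under 0.05 was reached by 4 members in HCT116 and 7 in MDA-MB-231. All genes were not counted at that level, so these counts cannot be judged against a usual share. This comparison shares its IgG with H2O2 libraries with the one of H2O2 against IgG. In HCT116 the smallest p belonged to PDHB, with 68.7 and 65.6 TPM with the antibody and 59.7 and 63.4 TPM without it under H2O2 (0.12, limma adjusted p = 0.92). RPE had 42.6 and 44.5 TPM with the antibody and 39.0 and 39.7 TPM without it (0.14, limma adjusted p = 0.92). Both genes fell under H2O2 and were nearer their IgG levels with the antibody, in separate libraries, without passing the test. The same H2O2 libraries enter both comparisons, so a gene low in them tends to look nearer its IgG level with the antibody. No reversal can be read from these values. Of all genes tested, 37.4% had separate libraries in this comparison. PDK1 had 11.7 and 11.0 TPM with the antibody and 8.35 and 9.77 TPM without it under H2O2 (0.30, limma adjusted p = 0.92). The antibody libraries lay above both others without passing the test. ME1 had 71.1 and 72.3 TPM with the antibody and 67.4 and 64.7 TPM without it (0.12, limma adjusted p = 0.92). The TCA sum was 2015 ± 6.14 TPM with the antibody and H2O2, against 1985 ± 21.4 TPM under H2O2 (SD, n = 2 each), and both lay below the 2238 ± 25.6 TPM under IgG.

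In MDA-MB-231 the smallest p belonged to PGK1, phosphoglycerate kinase, with 555.7 and 521.5 TPM with the antibody and 638.8 and 630.5 TPM without it under H2O2 (-0.24, limma adjusted p = 0.244). PFKM (-0.19, limma adjusted p = 0.286) and SUCLG2 (-0.21, limma adjusted p = 0.305) came next. LDHA lay in the same direction, at 1464 and 1427 TPM with the antibody and 1640 and 1684 TPM without it (-0.20, limma adjusted p = 0.319). The groups were separate for PGK1, PFKM, SUCLG2 and LDHA, as they were for 48.1% of all genes tested. In HCT116 PGK1 had 581.7 and 532.6 TPM with the antibody and 494.7 and 516.6 TPM without it (0.14, limma adjusted p = 0.92). The difference of the antibody change between the lines did not pass for any member, where 0.0287% of all genes passed. An unadjusted limma p under 0.05 was reached by 8 members, a level at which all genes were not counted. It was 0.38 for PGK1 (95% interval 0.19 to 0.56, limma adjusted p = 0.338) and 0.37 for LDHA (95% interval 0.13 to 0.61, limma adjusted p = 0.348).

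The antibody libraries of HCT116 differed from each other in glycolysis genes. Replicate 1 was the highest of the 6 HCT116 libraries for 15 of the 47 members, 11 of them among the 17 glycolysis genes, and replicate 2 was the highest for 2 members. IgG replicate 2 was the highest for 16 members and the lowest for 11, and H2O2 replicate 1 was the lowest for 17. The same ranking was not counted over all genes, so these counts have no usual share beside them. Relative to the mean of the H2O2 libraries, 16 of the 17 glycolysis genes were above it in replicate 1, with a median of 0.11, and 7 of 17 in replicate 2, with a median of -0.01. Over all genes tested the median was 0.01 in replicate 1 and 0.01 in replicate 2. PFKFB4 had 53.7 TPM in replicate 1 and 36.7 TPM in replicate 2. ENO2 had 114.1 and 90.2 TPM and HK2 66.1 and 56.3 TPM in the same order. For ENO2 and HK2 replicate 2 lay between the H2O2 libraries, and for PFKFB4 just below them. In MDA-MB-231 antibody replicate 2 was the lowest of 6 libraries for 24 of the 47 members, and this was not counted over all genes either. Its median against the H2O2 mean was -0.06 over the members and -0.03 over all genes.

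**Figure D5:**
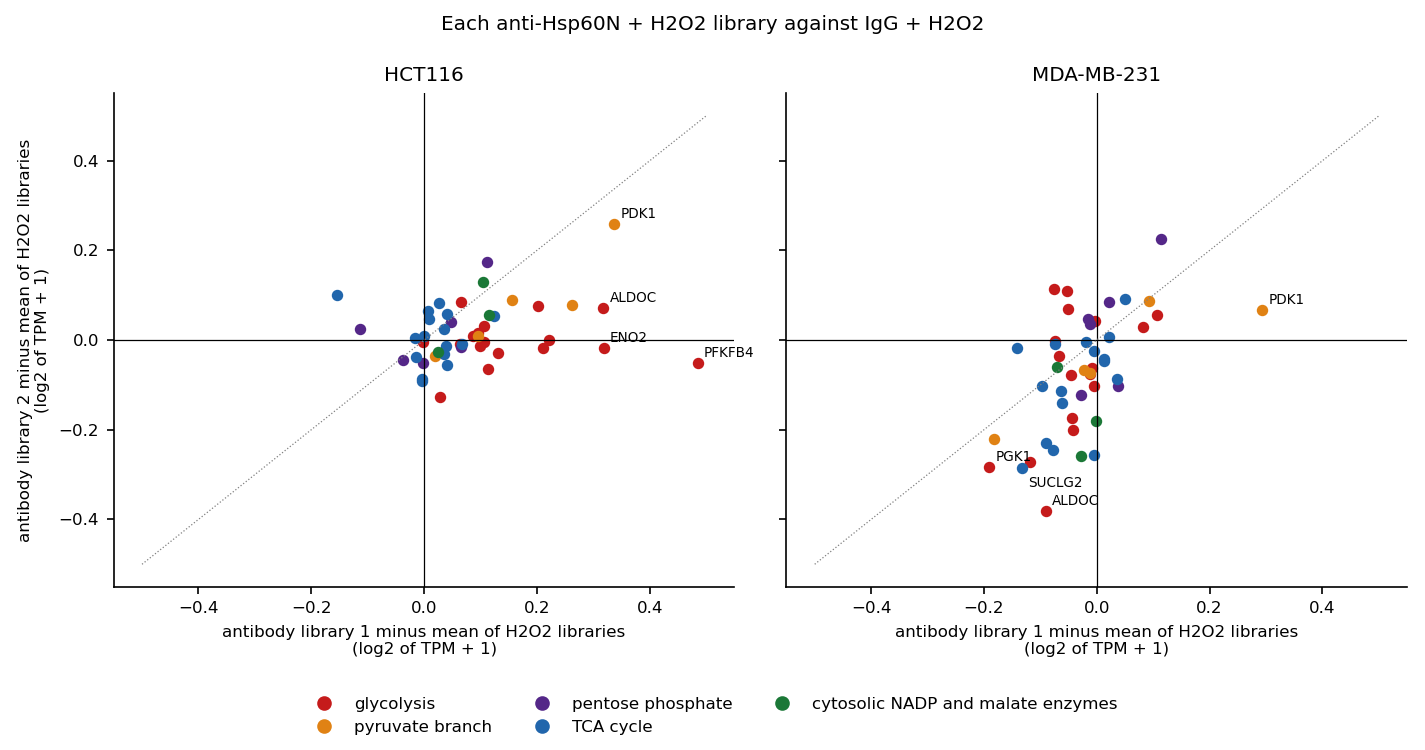
Each member's log2(TPM + 1) in anti-Hsp60N with H2O2 library 1 (horizontal axis) and library 2 (vertical axis), both minus the mean of the IgG with H2O2 libraries of the line, HCT116 left and MDA-MB-231 right; colours mark the pathway and the dotted line marks equal values. In HCT116 16 of 17 glycolysis genes lie right of 0 and 7 of 17 lie above 0, with PFKFB4 furthest right, and PDK1 is high in both libraries.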

How the data were processed

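RNA-seq of 12 libraries (2 lines, 3 treatments, 2 libraries per group) was analysed from TPM values as deposited, in 1 table with 2 decimals. Per the submitters' processing notes, hg19, RSEM, STAR and bcl2fastq 2.20 were used, in roles and an order they do not state. No source used here gives the strand setting or annotation. TPM keeps no read depth, and 0 columns were left unmatched.

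From the deposited TPM, log2(TPM + 1) was computed, which understates changes of low genes. The filter kept genes that reached 1 TPM in at least 2 libraries (13956 of 23686). A linear model with 1 mean for each of the 6 groups was fitted to the 12 libraries with limma 3.58.1 in R 4.3.3, using its trend option, with 6 residual and 4.63 prior degrees of freedom. The tests were two-sided, with Benjamini-Hochberg adjustment over all genes kept and a threshold of 0.05, for 7 comparisons, and the procedure was tested on simulated data. Of the comparisons, 2 share the IgG with H2O2 group within each line. Fold changes are the first-named group minus the other. Named in full were at most 5 members per direction and comparison among those past the threshold with separate libraries, otherwise the member of smallest p, and at most 5 of the further pathway genes. Of those, 3 were matched by older symbols (TIGAR as C12orf5, SDHAF3 as ACN9, SDHAF4 as C6orf57). Some genes in the text, such as paralogs and subunits, were added for their role after values were seen. The members and lists were chosen with earlier results of these data known. Replicate numbers were not used to pair the samples in the main fit.

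Alternatives were pseudocounts of 0.1 and 5, no filter, a mean of at least 5 TPM, median-of-ratios and quantile normalization, a replicate block, each line alone, and leaving out each library. Figures used Python 3.11.15 and matplotlib 3.10.9.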

Additional observations from a re-analysis of the deposited data

Results flagged for a closer look

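The H2O2 change differed between HCT116 and MDA-MB-231 for 4 members by the limma test of the difference itself, which is 8.51% of the 47 members beside 17.4% of all genes. The change in HCT116 minus that in MDA-MB-231 was 0.68 for HK2, -0.39 for PFKM, -0.25 for TALDO1 and -0.37 for IDH3A, on the log2(TPM + 1) scale. In HCT116 HK2 was higher under H2O2 and the other 3 were lower, with separate libraries, which 62.8% of all genes tested had as well. In MDA-MB-231 none of the 4 passed the limma test under H2O2, where HK2 changed by -0.11, PFKM by 0.07, TALDO1 by 0.10 and IDH3A by 0.075.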

How the results depend on the processing

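Each comparison's count of members past the threshold was recomputed under the alternatives that applied to it: fitting each line alone gives no value between the lines, and the crossed numbers were run for H2O2 in HCT116 alone. For H2O2 in HCT116 the count of 20 was 13 with each line fitted alone, and it lay between 12 and 21 when 1 library was left out. For the difference of the H2O2 change between the lines, the count of 4 was 7 with a filter at a mean of 5 TPM, 7 with the replicate block, and between 2 and 6 with 1 library left out. For the lines under IgG it lay between 36 and 38 with 1 library left out. The counts for H2O2 in MDA-MB-231, for the antibody in both lines and for the difference of the antibody change remained 0 under each alternative run for them. The cause of the shifts was not tested. Leaving out a library leaves 1 group with 1 sample, which is assumed to vary like the others. The replicate numbers were checked by the correlation of the deviations of same-numbered libraries. It lay between 0.012 and 0.164 in MDA-MB-231 and between -0.127 and 0.055 in HCT116. These values are low, and they cannot show whether same-numbered libraries share a culture or batch. With the replicate block the HCT116 count under H2O2 was 21, and with the numbers crossed, an alternative chosen after seeing the data, 23. Of 101 gene results past the threshold, 67 kept their call under all settings that applied. SUCLG1 between the lines changed sign and lost its call after median-of-ratios scaling (-0.0093, limma adjusted p = 0.878), a setting that itself shifts the median of all genes by over 0.1, and it lost the call in 6 further settings of 19. With TPM alone the depth of the libraries is unknown, so what counting error limits cannot be given.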

Other observations

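Among the further genes of these pathways, 20 of 47 were higher and 21 were lower in HCT116 than in MDA-MB-231 under IgG. That is 87.2% beside 82.8% of all genes (45.5% higher, 37.3% lower), close to the share of genes in general. The largest differences lay far outside the range of the 47 enzymes. SLC16A1, the lactate transporter MCT1, had 93.7 and 92.0 TPM in HCT116 and 0.18 and 0.29 TPM in MDA-MB-231. PDP1, the phosphatase that reverses the action of PDK1 on pyruvate dehydrogenase, had 402.6 and 401.1 TPM in HCT116 and 33.8 and 37.9 TPM in MDA-MB-231 (3.45, limma adjusted p = 7.22e-13). The opposite held for genes near 0 in HCT116. NNT, the mitochondrial transhydrogenase that makes NADPH, was listed at 0 and 0.02 TPM in HCT116 and had 37.2 and 43.4 TPM in MDA-MB-231. ME3, the mitochondrial NADP-dependent malic enzyme, was listed at 0 and 0.17 TPM in HCT116 and had 30.9 and 29.6 TPM in MDA-MB-231. FBP1, which reverses the phosphofructokinase step, was listed at 0.15 and 0 TPM in HCT116 and had 35.7 and 40.4 TPM in MDA-MB-231. These 5 genes were named by size of the difference, their levels kept to the same side in all 6 libraries of each line, and none passed the limma test under H2O2 in either line.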
